A study of Mus musculus with 6 samples.

Results

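Transcripts of 10 genes of interleukin-6 family signalling were compared between tumors of Mki67 knockout and wild-type 4T1 cells, among 54146 genes in the count tables. The members were matched by symbol and comprise the ligands Il6, Lif, Osm and Il11, the receptor chains Il6ra, Il6st, Osmr and Lifr, the transcription factor Stat3 and its feedback inhibitor Socs3. All 10 members passed the filter on low counts and are among the 19900 genes tested. The KO group holds 3 libraries from tumors of 4T1 cells with the genotype Mki67-/-, and the WT group holds 3 libraries from tumors of wild-type 4T1 cells. 4T1 is a mouse mammary carcinoma line. In both groups the cells were injected into the mammary fat pad of nude mice, and the tumors were collected 3 weeks later. Nude mice lack a thymus but keep myeloid and natural killer cells. The labels give neither the number of knockout clones nor the age of the mice. They do not say that each library is a separate animal, so the p-values measure only the spread between these libraries, which may be technical. Differences between clones and the loss of Mki67 cannot be told apart here.

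Cytokines of the interleukin-6 family share the signalling receptor chain gp130, the product of Il6st. Interleukin-6 binds its own receptor chain Il6ra before it recruits gp130, interleukin-11 does the same through Il11ra1, and Lif and oncostatin M bring gp130 together with Lifr or Osmr. The receptors carry Janus kinases, mainly Jak1, Jak2 and Tyk2, which phosphorylate Stat3, so the activity of Stat3 is set by phosphorylation rather than by its transcript level. Active Stat3 induces Socs3, which binds gp130 and the Janus kinases and shuts the signal down. In mammary tissue Lif and Stat3 are known for driving the cell death of involution, and in tumors the pathway links myeloid cells, fibroblasts and carcinoma cells.

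The promoters of the 2 members that changed and of Socs3 are shown first. Socs3 is the textbook readout of Stat3 and, of the 9 members with a window, was the one with a match to the Stat motif. Each window runs from 250 bases before to 50 bases after the RefSeq start (GRCm38.p6). The motif searched was TTCNNNGAA, which is its own reverse complement, and its matches are in capitals.
Socs3, chr11:117969317-117969616, minus strand: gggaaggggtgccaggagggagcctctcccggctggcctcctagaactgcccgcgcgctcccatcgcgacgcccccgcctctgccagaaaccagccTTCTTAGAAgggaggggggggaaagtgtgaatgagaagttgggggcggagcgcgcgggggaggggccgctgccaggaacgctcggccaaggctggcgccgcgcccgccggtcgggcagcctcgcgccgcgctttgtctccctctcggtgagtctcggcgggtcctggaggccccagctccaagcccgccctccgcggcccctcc
Lif, chr11:4257318-4257617, plus strand: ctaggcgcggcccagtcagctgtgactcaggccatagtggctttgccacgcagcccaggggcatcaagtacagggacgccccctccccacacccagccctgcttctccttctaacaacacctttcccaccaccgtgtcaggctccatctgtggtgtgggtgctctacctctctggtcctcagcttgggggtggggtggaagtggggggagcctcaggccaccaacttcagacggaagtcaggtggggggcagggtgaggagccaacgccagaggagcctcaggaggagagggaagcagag
Il6ra, chr3:89913147-89913446, minus strand: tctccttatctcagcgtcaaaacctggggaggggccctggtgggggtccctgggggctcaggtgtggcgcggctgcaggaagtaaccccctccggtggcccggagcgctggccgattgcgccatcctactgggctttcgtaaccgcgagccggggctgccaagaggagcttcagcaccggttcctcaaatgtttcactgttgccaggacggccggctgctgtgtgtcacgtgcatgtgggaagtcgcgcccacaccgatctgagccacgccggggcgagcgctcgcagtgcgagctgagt
The match in Socs3 begins 154 bases before that start, which lies inside the Socs3 gene as GENCODE M21 gives it, and the Lif and Il6ra windows hold none. The bases before the GENCODE start of Socs3 were not searched, and Osm had no window. Of the 11 windows matched to 9 members, 1 held the motif, and of all 32851 windows 2726 did (8.30%). A match in such a window is a description of the letters and not a binding site.

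The libraries differed in ways beyond the pathway. Gene counts were 22081970 to 30772729 in KO and 37065778 to 38399826 in WT libraries, and 3 counts, the limit that a count of 0 allows, equal 0.0976 to 0.129 CPM in KO and 0.0794 to 0.0828 CPM in WT libraries. CPM are counts scaled to the library total after TMM scaling. Unmapped pairs made up 30.8%, 54.6% and 52.7% in KO replicates 1, 2 and 3 and 31.2% to 33.9% in WT libraries. Correlations of log2 CPM across genes, which are not independent replicates, were 0.98 to 0.99 among KO and 0.996 to 0.997 among WT libraries. Mki67 itself was at 98.7, 117 and 139 CPM in KO libraries, against 360, 395 and 325 CPM in WT libraries. Keratin 8, a marker of 4T1 epithelium, was at 1512 to 1850 CPM in KO and 1397 to 1496 CPM in WT libraries. Counts of markers that rose or fell are by the test described below, in which 17.6% of all genes tested rose and 18.4% fell. Of the epithelial markers 4 of 5 rose, with sums of 4523 to 4803 CPM in KO and 2698 to 2829 CPM in WT libraries. Of the adipocyte markers 5 of 5 rose (58.9 to 196 CPM in KO, 14.2 to 19.1 CPM in WT), and of the keratinocyte markers 6 of 6 (727 to 1590 CPM in KO, 71.6 to 125 CPM in WT). Of the skeletal muscle markers 4 of 5 rose (48.8 to 57.4 CPM in KO, 38.4 to 47.3 CPM in WT) and of the endothelial markers 1 of 5 (172 to 241 CPM in KO, 184 to 254 CPM in WT), while 2 of 5 mast cell markers fell (33.6 to 52.6 CPM in KO, 41.3 to 75.2 CPM in WT). Of the fibroblast markers 6 of 7 rose and 1 fell. KO replicate 2 had the highest sums of fibroblast, adipocyte and keratinocyte markers. No marker on these lists was at 0 in all libraries, and the part of these cell types in the results below was not tested.

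Of the 10 members, 1 was higher in KO tumors (Lif) and 1 was lower (Il6ra), while 8 did not pass the test (edgeR quasi-likelihood, Benjamini-Hochberg adjusted over all genes tested, threshold 0.05). The share of all tested genes past that threshold was 36.0%, with 17.6% higher and 18.4% lower. The members' share was not tested against it. The median log2 fold change of the members was -0.06, against 0.05 over all genes tested. Every KO library lay above every WT library for Lif alone among the members, where the background was 24.5%, and below for Il6ra alone, where it was 26.0%. The calls of Lif and Il6ra held in each of the 18 alternative analyses.

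**Figure D1:**
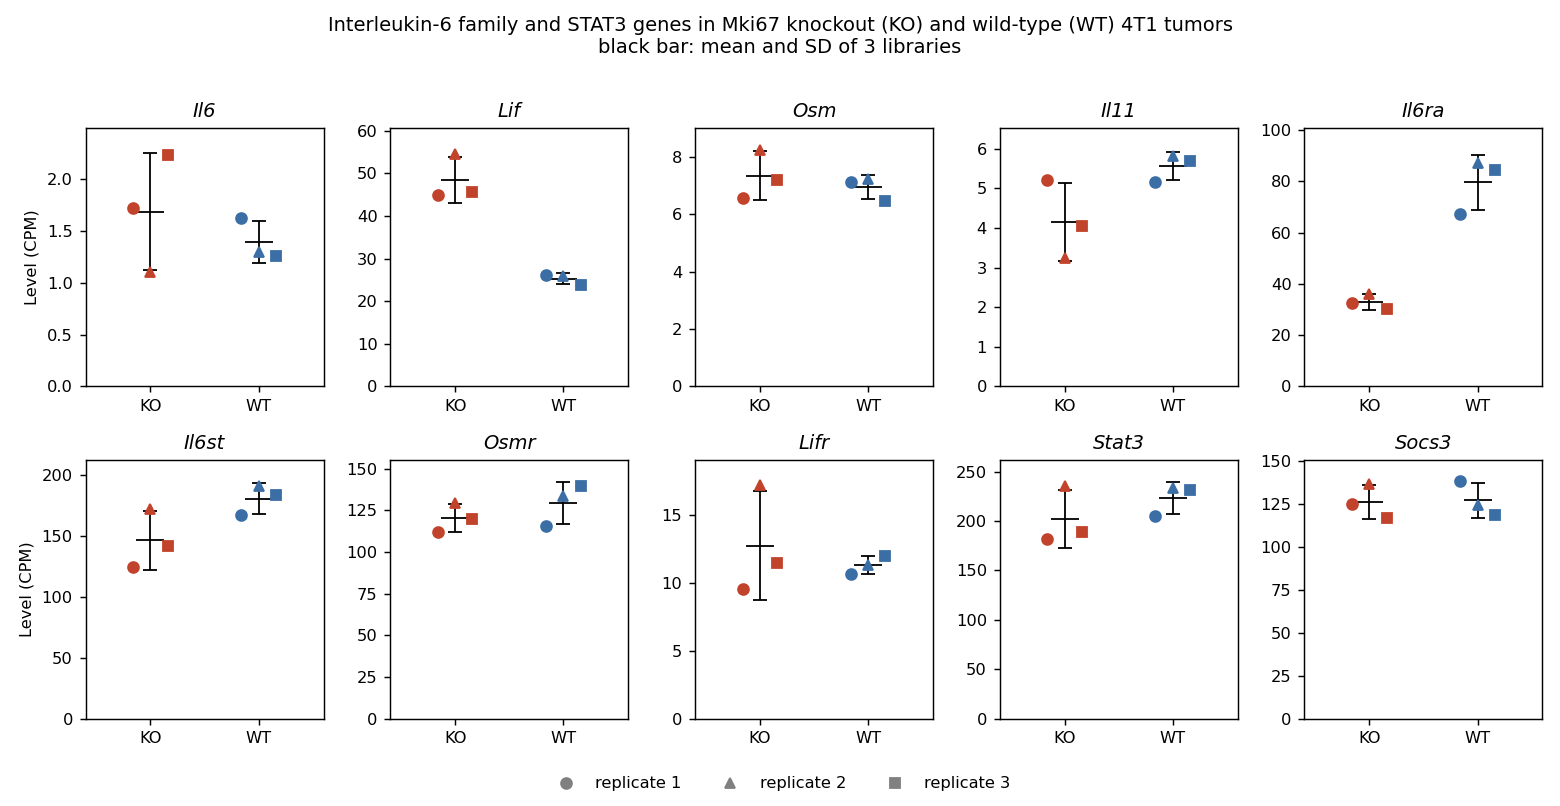
Level of each member in CPM (vertical axes from 0) in 3 KO and 3 WT libraries, with the mean and SD as black bars and the replicate number as the symbol. Lif was at 44.9 to 54.6 CPM in KO libraries, all above the WT libraries at 23.8 to 26.2 CPM, and Il6ra was at 30.2 to 36.3 CPM, all below WT at 67.2 to 87.2 CPM, while the groups overlap for the other members.

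Among the ligands, Lif rose. Lif (ENSMUSG00000034394, GRCm38 chromosome 11, 4257557 to 4272514, plus strand), leukemia inhibitory factor, was at 44.9, 54.6 and 45.5 CPM in KO replicates 1, 2 and 3, against 26.2, 25.9 and 23.8 CPM in WT replicates 1, 2 and 3. All KO libraries were high and the groups did not overlap. It averaged 48.4 CPM ± 5.44 in KO and 25.3 CPM ± 1.32 in WT tumors (SD, n = 3 each), a 1.91-fold higher level (log2 fold change 0.93, SE 0.11, edgeR adjusted p = 0.000352). Its log2 fold change ranged from 0.76 to 1.04 over the alternatives.

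Osm (ENSMUSG00000058755, chromosome 11, 4236420 to 4241026, plus strand), oncostatin M, lies 16.5 kb before Lif on the same strand. It was at 6.57, 8.26 and 7.19 CPM in KO libraries, against 7.12, 7.23 and 6.47 CPM in WT libraries. The groups overlapped, and its log2 fold change was 0.08 with a 95% interval of -0.25 to 0.41 (edgeR adjusted p = 0.693), and the log2 fold change of its neighbour Lif, 0.93, lies outside that interval. The direction for Osm turned in 4 alternatives, among them without KO replicate 2 (-0.06) and without WT replicate 3 (-0.03). Per length, Lif exceeded Osm by 3.57, 3.46 and 3.31 times in KO libraries, against 1.92, 1.87 and 1.92 times in WT libraries. These ratios did not overlap between the groups (two-sided exact permutation test, p = 0.1, the smallest that 3 against 3 libraries can give, adjusted p = 0.12 over 6 ratios). They carry the rise of Lif given above and are not a separate result. The share of all such ratios that do not overlap was not counted.

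Il11 (ENSMUSG00000004371, chromosome 7, 4772373 to 4782859, minus strand), interleukin-11, was at 5.20, 3.24 and 4.04 CPM in KO libraries and at 5.16, 5.83 and 5.69 CPM in WT libraries. KO replicates 2 and 3 lay below all WT libraries, and KO replicate 1 overlapped them. The log2 fold change was -0.41 (SE 0.20, edgeR adjusted p = 0.134). Without KO replicate 1 it was -0.62 and passed (adjusted p = 0.0196), the only 1 of 18 alternatives in which Il11 passed. With the share of unmapped pairs as a covariate it was -0.12 (adjusted p = 0.659).

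Il6 (ENSMUSG00000025746, chromosome 5, 30013114 to 30019981, plus strand), interleukin-6 itself, was the least abundant ligand. It had 53, 28 and 52 counts in KO libraries and 59, 49 and 47 counts in WT libraries, or 1.72, 1.11 and 2.24 CPM against 1.63, 1.298 and 1.26 CPM. KO replicate 2 was the lowest of all libraries and KO replicate 3 the highest. At this depth the 95% interval of its log2 fold change was wide, from -0.42 to 0.97 (edgeR adjusted p = 0.502).

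Among the receptor chains, Il6ra fell. Il6ra (ENSMUSG00000027947, chromosome 3, 89864059 to 89913196, minus strand), the chain that binds interleukin-6, was at 32.4, 36.3 and 30.2 CPM in KO libraries, against 67.2, 87.2 and 84.4 CPM in WT libraries. No KO library reached the lowest WT library. It averaged 33.0 CPM ± 3.07 in KO and 79.6 CPM ± 10.8 in WT tumors (SD, n = 3 each), a 2.42-fold lower level (log2 fold change -1.27, SE 0.12, edgeR adjusted p = 0.00014). Over the alternatives the log2 fold change ranged from -1.40 to -1.17.

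Il6ra is known on macrophages, neutrophils and hepatocytes, and macrophage markers moved in the same direction. All 9 macrophage markers on the list were lower, against 18.4% of all genes tested. Their summed level was 912 to 1120 CPM in KO libraries, against 5152 to 6010 CPM in WT libraries. Of the neutrophil markers 3 of 7 were higher, against 17.6% of all genes tested. Neutrophil markers summed to 316 to 440 CPM in KO libraries and 232 to 280 CPM in WT libraries. The part of these cells in the fall of Il6ra was not tested. In bulk RNA from tissue, fewer cells of a type and less RNA per cell cannot be told apart, and carcinoma and host transcripts are both of mouse.

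The shared chain Il6st (ENSMUSG00000021756, chromosome 13, 112464070 to 112510086, plus strand) was at 125, 173 and 142 CPM in KO libraries, against 167, 191 and 184 CPM in WT libraries. KO replicates 1 and 3 lay below all WT libraries, while KO replicate 2 exceeded WT replicate 1. Its log2 fold change was -0.30 (95% interval -0.59 to -0.02) and did not pass after adjustment (edgeR adjusted p = 0.092). Without KO replicate 2 it was -0.49 and passed (adjusted p = 0.0055). With the share of unmapped pairs as a covariate it also passed (-0.51, adjusted p = 0.0188). Il6st passed in 5 of 18 alternatives. Without KO replicate 1 it was -0.21 (adjusted p = 0.159), and with the share of pairs outside exons as a covariate -0.19 (adjusted p = 0.402). KO replicate 2 also had the highest fibroblast sum, 7851 CPM, against 3905 and 5285 CPM in KO replicates 1 and 3. The WT libraries were at 2088 to 2779 CPM. Among KO libraries, KO replicate 2 was also the highest for macrophage, endothelial, adipocyte, keratinocyte and mast cell sums. The epithelial and neutrophil sums were highest in KO replicate 1 and the skeletal muscle sum in KO replicate 3. KO replicate 2 also had the largest share of unmapped pairs, 54.6%. The part of these differences in the Il6st level was not tested.

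Osmr and Lifr, the partner chains of gp130, lie 215.6 kb apart on chromosome 15 on opposite strands. Osmr (ENSMUSG00000022146, 6813577 to 6874969, minus strand), which binds oncostatin M, was at 112, 129 and 120 CPM in KO libraries, against 115, 134 and 140 CPM in WT libraries. The groups overlapped, and the 95% interval of its fold change was 0.79 to 1.09 (edgeR adjusted p = 0.439). Over the 18 alternatives the log2 fold change of Osmr ranged from -0.27 to -0.03, and it passed in none. Lifr (ENSMUSG00000054263, 7090614 to 7197489, plus strand), the receptor chain of Lif, was at 9.53, 17.2 and 11.4 CPM in KO libraries, against 10.6, 11.3 and 11.9 CPM in WT libraries. KO replicate 2 was the highest of all libraries and KO replicate 1 the lowest. The log2 fold change of Lifr was 0.17 (SE 0.21, edgeR adjusted p = 0.534), and without KO replicate 2 it was -0.15.

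Set side by side per kilobase of exon, the order of the ligands was the same in both groups. Length here is that of all annotated exons of a gene merged. The transcripts in use were not determined, so the order holds for this length only. Lif was the most abundant, at 11.1 ± 1.25 CPM per kilobase in KO and 5.82 ± 0.304 in WT tumors, followed by Osm at 3.23 ± 0.375 and 3.05 ± 0.182, Il11 at 2.0 ± 0.475 and 2.67 ± 0.169, and Il6 at 0.696 ± 0.233 and 0.574 ± 0.0842 (SD, n = 3 each). No neighbours in this order overlapped in either group, although the lowest WT library for Osm (2.85) was close to the highest for Il11 (2.80). Among the receptor chains Il6st led, at 13.2 ± 2.19 in KO and 16.3 ± 1.12 in WT tumors. Osmr followed at 9.94 ± 0.70 and 10.7 ± 1.05, and Il6ra stood at 3.81 ± 0.355 in KO and 9.21 ± 1.25 in WT tumors, next to Osmr in WT tumors and well below it in KO tumors. Lifr was the lowest at 1.18 ± 0.37 and 1.05 ± 0.0611. Among neighbouring receptor chains only Osmr and Il6ra in WT tumors overlapped, at 9.53 to 11.5 for Osmr and 7.78 to 10.1 for Il6ra.

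**Figure D2:**
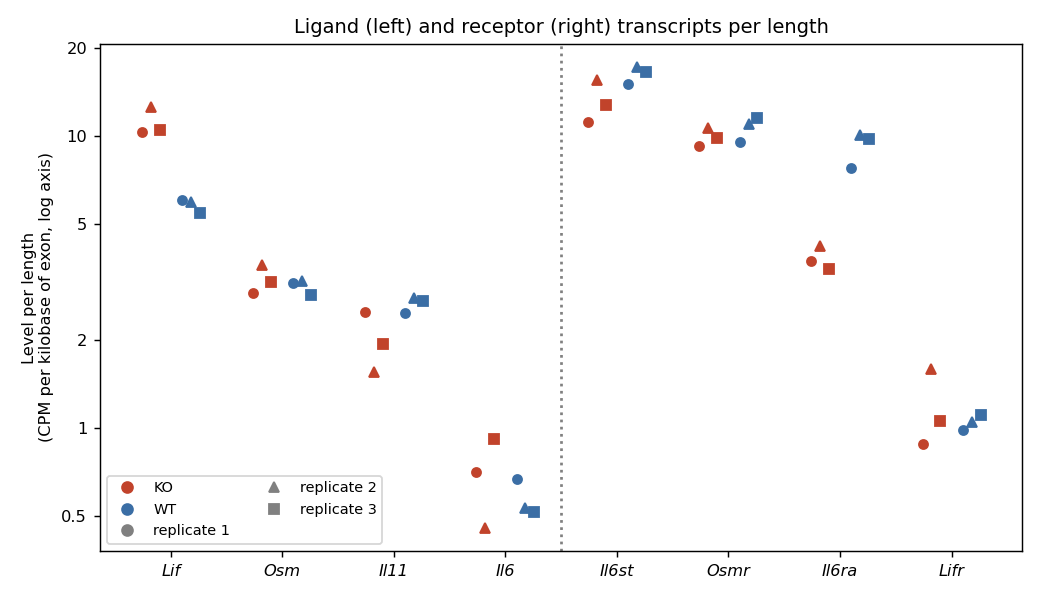
Level per length (CPM per kilobase of merged exons, log axis) of 4 ligands and 4 receptor chains in each library, KO on the left of each pair and the symbol giving the replicate. Lif in KO libraries reaches the range of Osmr, and Il6ra in KO libraries sits near 3.81 CPM per kilobase, below its WT level of 9.21.

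Ratios of receptor chains within a library were compared per length. The ratio of Il6ra to Osmr per length was 0.404, 0.393 and 0.353 in KO libraries, against 0.816, 0.915 and 0.846 in WT libraries. The ratio of Il6ra to Il6st was 0.334, 0.270 and 0.272 in KO libraries, against 0.516, 0.585 and 0.588 in WT libraries. The ratio of Lifr to Il6st was 0.0788, 0.103 and 0.0828 in KO libraries, against 0.0653, 0.0607 and 0.0666 in WT libraries. None of these 3 ratios overlapped between the groups, but none could pass, since the smallest possible p is 0.1 (two-sided exact permutation test, p = 0.1, adjusted p = 0.12 over 6 ratios). The ratios of Il6ra carry its fall given above and are not separate results. For the ratio of Lifr to Il6st, neither gene passed on its own (edgeR adjusted p = 0.534 and 0.092). Among all genes tested, every KO library lay above every WT library in 24.5% and below in 26.0%. The share of all such ratios that do not overlap was not counted. The ratio of Osmr to Il6st overlapped, at 0.761 ± 0.0707 in KO and 0.656 ± 0.034 in WT tumors (SD, n = 3 each, exact permutation p = 0.2).

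The transcription factor and its inhibitor did not pass the test. Stat3 (ENSMUSG00000004040, chromosome 11, 100885098 to 100939540, minus strand) was at 182, 236 and 189 CPM in KO libraries, against 205, 233 and 232 CPM in WT libraries. KO replicate 2 was the highest of all 6 libraries and the other KO libraries the lowest. Its log2 fold change was -0.14 (95% interval -0.41 to 0.13, edgeR adjusted p = 0.366), and without KO replicate 2 it was -0.31 and passed (adjusted p = 0.0288). Stat3 passed in only 2 of 18 alternatives, and its log2 fold change ranged from -0.36 to -0.009 over them.

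Socs3 (ENSMUSG00000053113, chromosome 11, 117966079 to 117970047, minus strand) was at 125, 137 and 117 CPM in KO libraries, against 138, 125 and 118 CPM in WT libraries. The libraries of the groups were interleaved. Its mean was 126 CPM ± 9.95 in KO and 127 CPM ± 10.2 in WT tumors (SD, n = 3 each), and the 95% interval of the fold change, 0.85 to 1.16, was the narrowest of the members on the log2 scale (log2 fold change -0.01, SE 0.10, edgeR adjusted p = 0.932). Its sign turned in 7 of the alternatives, with values between -0.12 and 0.09.

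KO replicate 2 was the highest KO library for 8 of the 10 members, the exceptions being Il6 and Il11. The share of all genes that were highest in this library was not counted, so this is not shown to be particular to the members. The KO libraries also spread more widely than the WT libraries for Lifr, where the highest exceeded the lowest by 1.80 times in KO and 1.12 times in WT tumors, and for Il6, by 2.02 and 1.297 times. By the mean absolute difference of centred log2 CPM over the 6 libraries, the genes with the most similar patterns were Ddi2 (0.018) and G6pdx (0.022) for Stat3, Grik5 (0.018) and Fkbp15 (0.020) for Il6st, and Rad51d (0.023) and Cdca5 (0.024) for Socs3, out of 11619 other genes with a mean of at least 5 CPM.

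Of 12 further ligands and receptor chains of the family, 10 were tested, 2 rose (20%, against 17.6% of all genes tested) and none fell (against 18.4%). Their median log2 fold change was -0.02, against 0.05 over all genes.

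Among those that rose was Cntfr, the receptor chain of ciliary neurotrophic factor and of the related ligand Clcf1. Cntfr was at 1.85, 7.86 and 2.88 CPM in KO libraries, against 0.52, 0.50 and 0.69 CPM in WT libraries, and KO replicate 2 stood far above the others. It rose 7.25-fold (log2 fold change 2.86, SE 0.53, edgeR adjusted p = 0.00404), and without KO replicate 2 the log2 fold change was 1.98 (adjusted p = 0.00108). With the share of unmapped pairs as a covariate it was 1.76, and with only the libraries under 40% unmapped pairs, which leaves 1 KO library, 1.62. Clcf1, the ligand itself, was at 38.7 CPM ± 3.38 in KO and 44.8 CPM ± 3.11 in WT tumors (SD, n = 3 each, edgeR adjusted p = 0.136). It passed towards lower without KO replicate 2 (log2 fold change -0.33, adjusted p = 0.026), but in only 2 of 18 alternatives.

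The receptor chain Il11ra1, which has near-identical copies in the genome and may be counted in part, was at 29.5 CPM ± 7.68 in KO and 24.1 CPM ± 0.861 in WT tumors (SD, n = 3 each, edgeR adjusted p = 0.22). It passed towards higher with the share of pairs outside exons as a covariate (log2 fold change 0.60, adjusted p = 0.00923), the only 1 of 18 alternatives in which Il11ra1 passed. Il31 and Cntf did not pass the filter on low counts, with 1 and 12 counts over the KO libraries and 2 and 25 counts over the WT libraries, and 78.9% of the exonic bases of Cntf lie under exons of other genes.

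Of 10 other Janus kinase and Stat genes, all tested, 1 rose (10%, against 17.6% of all genes tested) and 4 fell (40%, against 18.4%). Their median log2 fold change was -0.30, against 0.05 over all genes. Jak3, the kinase of cytokine receptors with the common gamma chain, was at 174, 285 and 216 CPM in KO libraries, against 111, 101 and 119 CPM in WT libraries, a 2.04-fold rise (log2 fold change 1.03, SE 0.17, edgeR adjusted p = 0.00218). Of the kinases that serve gp130, Jak1 fell 1.26-fold, to 158 CPM ± 7.04 in KO, against 198 CPM ± 7.43 in WT tumors (SD, n = 3 each, adjusted p = 0.0152), and passed in 14 of 18 alternatives. Jak2 was at 220 CPM ± 27.5 in KO and 239 CPM ± 12.8 in WT tumors, and Tyk2 at 37.7 CPM ± 5.04 and 43.0 CPM ± 2.90 (SD, n = 3 each), and neither passed (adjusted p = 0.42 and 0.225). Tyk2 passed towards lower without KO replicate 2 (log2 fold change -0.35, adjusted p = 0.021), but in only 2 of 18 alternatives.

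Stat6, the factor of interleukin-4 signalling, fell 1.39-fold (log2 fold change -0.48, edgeR adjusted p = 0.0054) and was past the threshold in each alternative. Stat5a, the factor of prolactin signalling, fell by 0.49 on the log2 scale (adjusted p = 0.0406), but it passed in only 9 of 18 alternatives. The call of Stat5a was lost with library totals alone, the first stranded column, either covariate, and each library left out except KO replicate 2. The number of these genes that fell was 7 without KO replicate 2, 1 without KO replicate 3, 1 without WT replicate 1 and 2 without WT replicate 2 or WT replicate 3. Over all genes, 7158 were past the threshold with all libraries and 9301 without KO replicate 2. That number was 5118 without KO replicate 3 and 4078 to 4479 without 1 WT library.

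Of 15 inhibitors of the pathway besides Socs3, all tested, 1 rose (6.67%, against 17.6% of all genes tested) and 5 fell (33.3%, against 18.4%). Their median log2 fold change was -0.20, against 0.05 over all genes. Socs2, an inhibitor best known from growth hormone signalling, was at 35.8, 38.2 and 32.2 CPM in KO libraries, against 22.7, 18.1 and 23.8 CPM in WT libraries, a 1.65-fold rise (log2 fold change 0.72, SE 0.13, edgeR adjusted p = 0.00341). Pias1, a Stat-binding SUMO ligase, fell 1.33-fold (adjusted p = 0.0057), and both genes passed in each alternative. Ptpn11, the phosphatase that docks on gp130, fell 1.24-fold (adjusted p = 0.0182), and Socs5 fell 1.31-fold (adjusted p = 0.0184). Socs7 and Ptpn1 fell by 0.34 and 0.30 on the log2 scale. Ptpn11 passed in 12 of 18 alternatives, and Socs5, Socs7 and Ptpn1 in 11 each. The number that fell was 1 without KO replicate 3, WT replicate 1, WT replicate 2 or WT replicate 3. In these settings 4078 to 5118 genes were past the threshold over all genes, against 7158 with all libraries. Socs1, the relative of Socs3 that also binds Janus kinases, was at 7.94 CPM ± 1.21 in KO and 9.13 CPM ± 0.532 in WT tumors (SD, n = 3 each, edgeR adjusted p = 0.324).

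**Figure D3:**
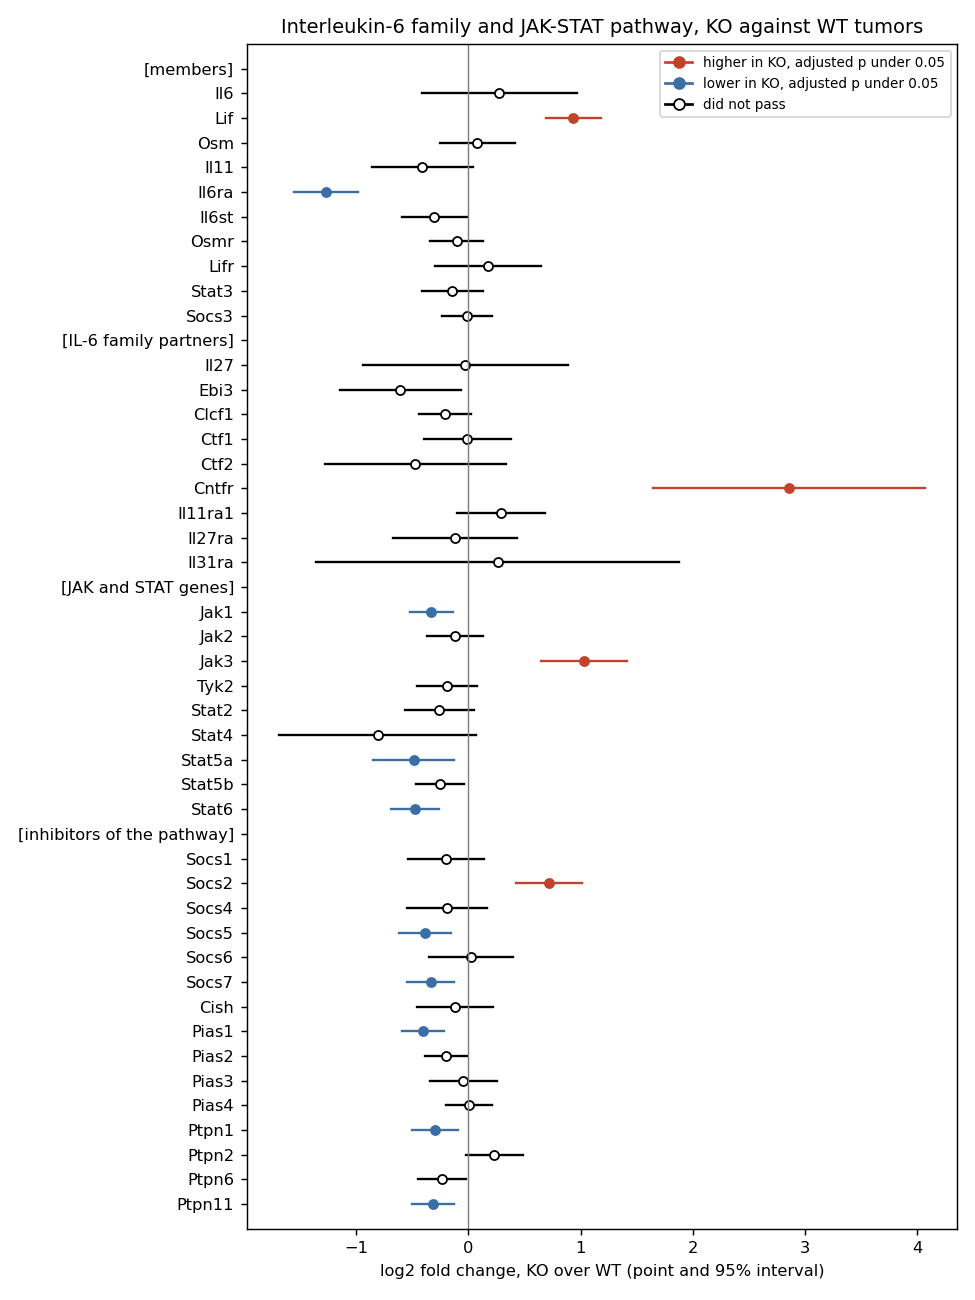
Log2 fold change of KO over WT with its 95% interval for the 10 members and for genes of 3 pathway lists, filled points passing the adjusted p of 0.05 (red higher, blue lower in KO). Lif (0.93), Cntfr (2.86), Jak3 (1.03) and Socs2 (0.72) are the rises shown, and Il6ra (-1.27) is the farthest to the left of the called genes shown.

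Of 24 listed genes known as Stat3 targets, 22 were tested, 14 rose and 4 fell, with a median log2 fold change of 0.57, against 0.05 over all genes. The share that rose was 63.6%, against 17.6% of all genes, and the share that fell was 18.2%, against 18.4%. This list, like the others, was chosen with earlier results of these data known, so the shares only describe the listed genes. Socs3, which active Stat3 induces, is counted with the members and not here (log2 fold change -0.01). Each of the listed genes also answers to other transcription factors. Lcn2, an iron-binding acute phase protein, was at 356, 561 and 458 CPM in KO libraries, against 64.7, 74.9 and 94.98 CPM in WT libraries, and rose 5.86-fold (log2 fold change 2.55, SE 0.20, edgeR adjusted p = 3.92e-05). Vegfa, the vascular growth factor, rose 2.44-fold, Junb 2.04-fold and Fos 1.92-fold. In Lcn2 and these genes the KO libraries lay above the WT libraries, as in 24.5% of all genes tested. All 4 were named for the smallest p of the list, so this is not separate support. These 4 genes passed in each alternative.

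Other acute phase genes that rose, named here after their values were seen, varied among KO libraries. Not all listed relatives of Saa3 rose. Saa1 had 78 counts over the KO and 79 over the WT libraries (edgeR adjusted p = 0.522). Saa2, too low to be tested, had 20 counts over the KO and 63 over the WT libraries. Hp, haptoglobin, was at 180, 336 and 146 CPM in KO libraries, against 44.2, 34.9 and 36.6 CPM in WT libraries (5.72-fold, edgeR adjusted p = 0.000332). Lrg1 was at 53.7, 112 and 57.6 CPM in KO libraries, against 26.0, 22.3 and 25.1 CPM in WT libraries (3.03-fold, adjusted p = 0.00207). Saa3, a serum amyloid A protein, was at 114, 39.98 and 58.1 CPM in KO libraries, against 27.6, 21.9 and 22.7 CPM in WT libraries (2.95-fold, adjusted p = 0.00741), and it did not pass with the share of pairs outside exons as a covariate (log2 fold change 1.34, adjusted p = 0.0667). KO replicate 2 was the highest for Hp and Lrg1 and the lowest KO library for Saa3. The log2 fold change of Saa3 was 1.56 with all libraries and 1.02 without KO replicate 1, its highest library. With only the libraries under 40% unmapped pairs it was 2.18, but that setting keeps KO replicate 1 as the one KO library.

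Among the remaining listed targets, Myc, the growth regulator, rose 1.596-fold, the kinase gene Pim1 1.47-fold and Birc5, a mitotic and anti-apoptotic protein, 1.51-fold. Steap4, a metalloreductase, rose 2.22-fold (edgeR adjusted p = 0.00996), the transcription factor gene Cebpb 1.69-fold (adjusted p = 0.0084) and Timp1, a metalloproteinase inhibitor, 1.46-fold (adjusted p = 0.00897). These 3 calls were lost in 1, 3 and 3 of the 18 alternatives, and exons of other genes cover 20.7% of the exonic bases of Cebpb. Bcl2l1, which guards against apoptosis, rose 1.19-fold (adjusted p = 0.0359) and passed in only 8 of 18 alternatives. Mcl1, which also guards against apoptosis, fell 1.52-fold, to 226 CPM ± 20.8 in KO, against 342 CPM ± 14.9 in WT tumors (SD, n = 3 each, edgeR adjusted p = 0.00205). Ccnd1, cyclin D1, fell 1.29-fold, Hif1a, the hypoxia factor, 1.39-fold, and Icam1, a leukocyte adhesion receptor, 1.79-fold. Mcl1 passed in all 18 alternatives, Ccnd1 and Icam1 in 14 and Hif1a in 13. Exons of other genes cover 23.4% of the exonic bases of Ccnd1. The number of Stat3 targets that fell was 1 without KO replicate 3 or WT replicate 1 and 2 without WT replicate 2. In these settings 4078 to 5118 genes were past the threshold over all genes, against 7158 with all libraries. With only the libraries under 40% unmapped pairs, and so 1 KO library, the log2 fold change of Icam1 was -1.43, against -0.84 with all libraries. Bcl3, Cebpd, Il4ra and Saa1 did not pass, and Saa2 and Fgg were too low to be tested.

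**Figure D4:**
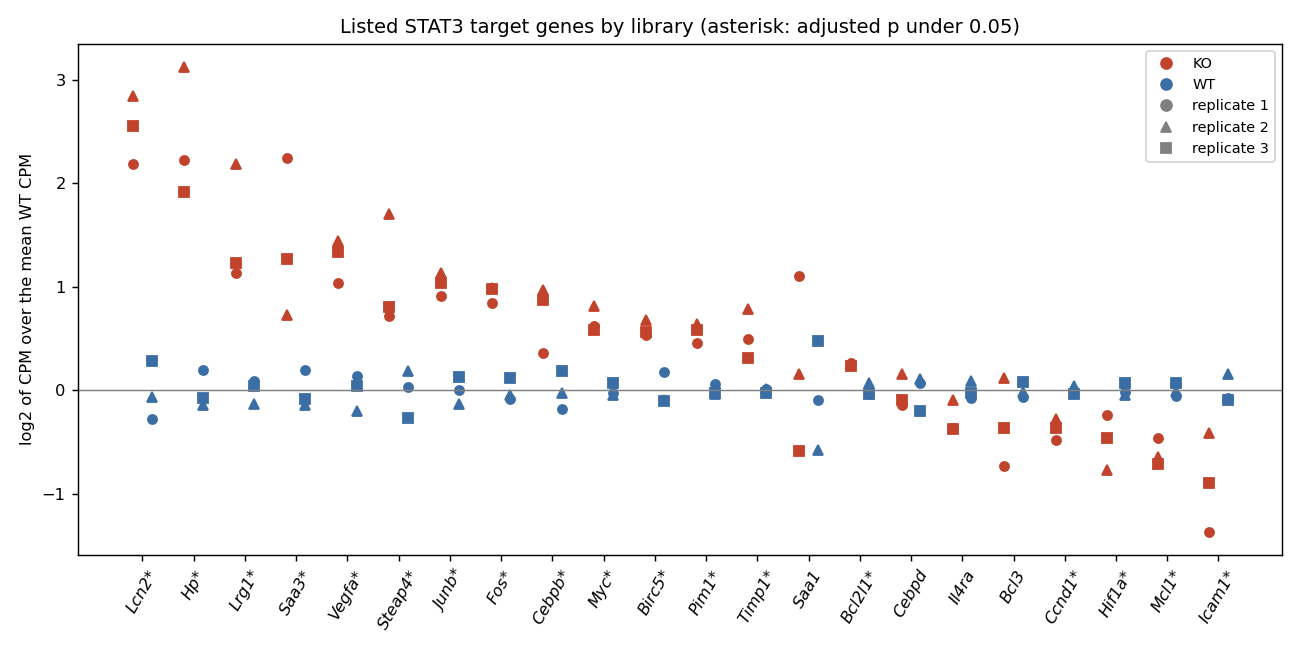
Log2 of the CPM in each library over the mean WT CPM for the 22 tested genes listed as Stat3 targets, KO to the left of WT, ordered by log2 fold change, with asterisks for an adjusted p under 0.05. The genes from Lcn2 (2.55) to Timp1 (0.55) lie above 0 in all KO libraries, and Ccnd1, Hif1a, Mcl1 and Icam1 at the right end lie below 0 in all KO libraries.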

How the data were processed

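RNA of 6 tumor libraries was sequenced as read pairs of 50 bases. The authors deposited whole-number counts per gene, not normalized, in an unstranded and 2 stranded columns. The submitters' processing notes name STAR 2.6.0c, FastQC, DESeq2 and GRCm38. The 4 leading rows of each table, which hold unmapped, multimapping, exon-free and ambiguous pairs, were left out of library sizes and fits. The first stranded column held 50.1% to 50.2% of stranded counts, so the unstranded column was used, and a gene cannot be separated from an antisense partner. Of 54146 gene rows, 54079 matched GENCODE M21. Where identifiers shared a symbol, the one with the highest count kept it.

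The test was edgeR 4.0.16 (R 4.3.3), using filterByExpr, TMM scaling, glmQLFit and glmQLFTest, with Benjamini-Hochberg adjustment over 19900 genes, KO over WT. CPM values use TMM library sizes. SE is the absolute log2 fold change over the square root of F, and 95% intervals use the t distribution and are approximate. Levels per length divide CPM by merged exon length. Limits from counts cover counting error only. The fit was tested on simulated data. The 18 alternatives were DESeq2 1.42.0, other scalings and filters, a stranded column, a robust fit, each library left out, the replicate block, mapping shares as covariates or limits, and the most abundant genes left out. The members, the lists and the naming rule were chosen with earlier results of these data known. The rule names all members, up to 4 called genes of each list with the smallest p, exceptions to a count, and the 2 nearest genes of Stat3, Il6st and Socs3. All further pathway genes in the text were named after their values were seen. Of the listed genes, 2 are counted with their lists and otherwise not reported here.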

Additional observations from a re-analysis of the deposited data

How the results depend on the processing

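The calls of Lif, Il6ra, Cntfr, Jak3, Stat6, Socs2, Pias1, Lcn2, Vegfa, Junb and Fos held in all 18 alternatives, and the counts of members, partners, JAK and STAT genes and Stat3 targets that rose stayed within 1.5 times. Leaving out 1 library at a time gave 4078 to 9301 genes past the threshold, 1 to 3 members lower, 0 to 1 partners lower, 1 to 7 JAK and STAT genes lower, 1 to 2 inhibitors higher, 1 to 6 inhibitors lower and 1 to 6 Stat3 targets lower. The number of members lower was 2 without the filter on low counts, with the replicate block or with the unmapped share as a covariate. With only the libraries under 40% unmapped pairs, which leaves 1 KO library, 3 members, 1 partner, 7 JAK and STAT genes and 8 inhibitors were lower and 3 inhibitors higher. The first stranded column gave 2 JAK and STAT genes and 3 inhibitors lower and 2 inhibitors higher. The unmapped share as a covariate gave 3 inhibitors lower and 2 higher, and the covariate for pairs outside exons gave 1 JAK and STAT gene, 1 inhibitor and 2 Stat3 targets lower.

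Signs turned for genes that did not pass. With the covariate for pairs outside exons the log2 fold changes were -0.23 for Il6, 0.081 for Socs3, 0.063 for Rad51d and 0.072 for Cdca5. With the unmapped share they were -0.072 for Osm, -0.20 for Lifr and 0.027 for Jak2, and with only libraries under 40% unmapped -0.14 for Osm and -0.31 for Lifr. Library totals alone gave 0.044 for Socs3, 0.022 for Rad51d and 0.034 for Cdca5, the stricter filter 0.049, 0.027 and 0.039, and the first stranded column 0.091, 0.0066 and 0.027. Without mitochondrial and the top 20 genes Socs3 was at 0.020 and Cdca5 at 0.0099. Leaving out 1 library at a time gave -0.060 to 0.15 for Osm, -0.15 to 0.34 for Lifr, -0.12 to 0.037 for Socs3, -0.15 to 0.012 for Rad51d and -0.12 to 0.030 for Cdca5. The causes were not tested.

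The replicate numbers share no stated origin. Deviations of same-numbered libraries correlated at 0.11, -0.0918 and -0.184, not every library correlated best with its own number, and the replicate block gave 6662 genes past the threshold against 7158 without it. Il6st passed under the block (log2 fold change -0.31, adjusted p = 0.042). Depth limits Il6, with 133 counts over KO and 155 over WT libraries, most among the members.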
